A study of Mus musculus with 16 samples.

Results

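The genes described here make cholesterol and fatty acids, or control the factors that switch those genes on. They were taken by name from the count table of a study of the insulin-secreting mouse cell line BetaTC6, which was derived from an insulinoma on a C57BL/6 background. Of 35 symbols on the list, 34 genes were in the table, among 23329 genes in all. The gene Msmo1 is there under its older symbol Sc4mol. All 34 passed the filter on low counts, as did 10822 genes of the whole table. The sterol arm holds 18 of them, the fatty acid arm 10, and a group of regulators and transport genes the other 6.

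Cells were grown for 3 days in medium with 15% serum, then kept in a buffer without glucose and given 20 mM glucose for 30 min. Polyadenylated RNA was sequenced from 4 groups of 4 libraries: wild-type cells with the vehicle DMSO, wild-type cells with ivermectin, and the same pair of treatments in a line labelled knockout for P2ry1, a purinergic receptor. Ivermectin is an antiparasitic drug. All 16 libraries thus share the serum-containing growth medium, the starvation step and the glucose step. The labels name a single line per genotype, and do not say whether the knockout line is 1 clone or whether the 4 libraries of a group came from separate cultures, so p-values measure the spread between these samples only.

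The factors SREBP1 and SREBP2, encoded by Srebf1 and Srebf2, are held in the endoplasmic reticulum membrane by SCAP and the INSIG proteins when sterols are plentiful. When sterols fall, SCAP carries them to the Golgi, where they are cut, and the released part enters the nucleus and binds sterol regulatory elements near its target genes. SREBP2 is best known for genes of cholesterol synthesis and uptake, and SREBP1c for genes of fatty acid synthesis, which insulin and glucose also raise. In β-cells these pathways supply membrane, and stores of lipid, in cells that secrete heavily.

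Library totals ranged from 893288 to 2013475 counts, and the 4 lowest were the wild-type vehicle libraries. Wild-type ivermectin replicate 4 stood apart from its group, with a chi-squared per degree of freedom of 5.05 to 6.81 against the other 3, where all other replicate pairs gave 1.17 to 2.18. Without it the members called between lines in ivermectin again numbered 14 higher and 3 lower, but Fasn was no longer among them and Cyp51 was. The sterol arm's median was 0.33 instead of 0.36. The RNA level of P2ry1 did not separate the labels: the log2 difference of the line labelled knockout from wild type was -0.17 (SE 0.101, edgeR adjusted p = 0.246) in vehicle and -0.11 (SE 0.0927, adjusted p = 0.394) in ivermectin. The level of this RNA therefore does not check the genotype labels. A list of 14 β-cell genes summed to 36900 to 48400 CPM (a gene's share of its library's counts, scaled with TMM factors) over the 16 libraries, and all 14 were seen in every group. The acinar genes Cpa1 and Prss2 and the ductal gene Krt19 were at 0 in all libraries. Pnlip, the remaining acinar gene, was seen only in ivermectin libraries. There the acinar list summed to at most 0.765 CPM in wild type and 1.14 CPM in the labelled line. Sox9, the remaining ductal gene, was seen in every group, and the ductal list reached at most 3.31 CPM. Lists of fibroblast, endothelial and immune genes reached at most 6.85, 2.93 and 5.99 CPM. Markers of other cells did move: the 2 δ-cell genes, Sst and Hhex, summed to 201 to 251 CPM in wild-type libraries and to 13.9 to 27.2 CPM in those labelled knockout. The α-cell gene Gcg was at 261 to 323 CPM in wild-type libraries and at 202 to 243 CPM in the labelled line, again without overlap. The part of these markers in the line differences was not tested. Transcripts of hepatocytes, 33 genes with none at 0 throughout a group, summed to 870 to 2480 CPM in wild-type vehicle libraries. They came to 175 to 466 CPM in wild-type ivermectin libraries, 86.3 to 180 CPM in knockout-labelled vehicle libraries and 117 to 398 CPM in knockout-labelled ivermectin libraries. In bulk RNA, fewer cells of a type and less RNA per cell cannot be told apart.

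To show what the arms share besides function, the 250 bases before each gene's RefSeq starts (GRCm38.p6) were searched on both strands, and a gene was counted when any of its windows held the motif. A window was at hand for 27 of the 34 members. For 7 of them (Mvk, Lss, Hsd17b7, Acaca, Fasn, Insig2 and Srebf1) the outermost window lies in whole or in part inside the gene's own span, so another start lies upstream. The CCAAT box (CCAAT, or ATTGG on the other strand), bound by NF-Y, a known partner of the SREBPs, was in the window of 14 of 15 sterol-arm genes (93.3%). It was in 3 of 7 fatty-acid-arm genes (42.9%) and in 41.8% of the 8665 tested genes with a window. One form of the sterol regulatory element, TCACNCCAC (GTGGNGTGA on the other strand), was in 1 of the 27, Hmgcs1, and in 1.21% of the tested genes with a window. The GC box GGGCGG, searched on both strands, was in 93.3% of sterol-arm, 57.1% of fatty-acid-arm and 67.2% of tested-gene windows. The E-box CACGTG, which reads the same on both strands, was in 18.5% of members and 10.5% of tested genes. By arm it was in 3 of 15 sterol-arm genes, 0 of 7 fatty-acid-arm genes and 2 of 5 regulator and transport genes. A match describes letters and is not a binding site.

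Printed here in the direction of transcription are 5 windows whose genes differed between the lines in 1 or both treatments, 2 from each arm and 1 regulator, with matches to the sterol regulatory element and the CCAAT box in capitals. Hmgcs1 lies on the plus strand, with its window at chr13:119690101-119690350; it holds the element TCACCCCAC, which ends 129 bases before the start, among 3 CCAAT boxes. The Ebp window, chrX:8193513-8193762 on the minus strand, holds 2 CCAAT boxes. Elovl6 (chr3:129532136-129532385, plus strand) and Acly (chr11:100528001-100528250, minus strand) hold neither motif. Not every window of that arm lacks them: that of Fasn, not printed, holds 3 matches to the CCAAT box. The box was in 11 of 14 members called higher in either line comparison and in 10 of 13 of the others with a window. The window of Insig1, chr5:28071162-28071411 on the plus strand, holds 1 CCAAT box.
Hmgcs1: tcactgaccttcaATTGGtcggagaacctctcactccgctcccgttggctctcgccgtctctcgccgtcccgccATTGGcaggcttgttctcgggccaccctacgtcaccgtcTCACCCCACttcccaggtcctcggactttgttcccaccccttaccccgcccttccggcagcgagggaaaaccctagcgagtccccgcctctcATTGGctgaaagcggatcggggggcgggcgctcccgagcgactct
Ebp: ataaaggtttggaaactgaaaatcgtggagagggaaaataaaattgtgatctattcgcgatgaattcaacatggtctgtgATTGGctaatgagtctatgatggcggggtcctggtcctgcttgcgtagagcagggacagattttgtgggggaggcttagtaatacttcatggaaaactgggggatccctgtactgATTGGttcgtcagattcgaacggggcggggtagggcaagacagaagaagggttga
Elovl6: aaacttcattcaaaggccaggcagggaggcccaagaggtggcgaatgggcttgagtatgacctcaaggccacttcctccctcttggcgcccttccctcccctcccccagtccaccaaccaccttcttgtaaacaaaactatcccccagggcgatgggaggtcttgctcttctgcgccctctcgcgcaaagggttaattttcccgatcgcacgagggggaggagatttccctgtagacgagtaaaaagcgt
Acly: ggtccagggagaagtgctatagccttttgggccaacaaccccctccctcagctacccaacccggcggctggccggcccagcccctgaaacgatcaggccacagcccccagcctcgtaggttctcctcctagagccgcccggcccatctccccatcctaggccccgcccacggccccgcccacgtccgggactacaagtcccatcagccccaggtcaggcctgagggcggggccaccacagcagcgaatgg
Insig1: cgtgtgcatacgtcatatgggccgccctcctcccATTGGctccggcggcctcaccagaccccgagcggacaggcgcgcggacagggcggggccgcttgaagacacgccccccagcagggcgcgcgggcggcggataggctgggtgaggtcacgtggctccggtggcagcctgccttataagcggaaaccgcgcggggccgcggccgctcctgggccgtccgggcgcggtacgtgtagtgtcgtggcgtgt

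The levels of the members in wild-type vehicle cells spanned a wide range on a per-length scale (TPM, counts scaled to transcript length and to a common total). Acly, which makes cytosolic acetyl-CoA for both arms, led at a level of 988 ± 21.6 TPM (SD, n = 4). Scd2, a desaturase that makes monounsaturated fatty acids, followed at 308 ± 25.3 TPM, then Fads1, the Δ5-desaturase of polyunsaturated fatty acids, at 203 ± 19.5 TPM. The highest gene of the sterol arm was Fdps, which makes farnesyl diphosphate, at 183 ± 17 TPM, within the spread of Fads1. Elovl6, which lengthens palmitate, was lowest at 5.86 ± 1.26 TPM, next to the sterol gene Hsd17b7 at 6.64 ± 1.6 TPM, and these neighbours did not differ beyond their spread. Insig1 was at 142 ± 11.5 TPM, Srebf1 at 65.6 ± 6.33 TPM, Insig2 at 51.8 ± 3.46 TPM and Srebf2 at 44.1 ± 2.8 TPM.

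The main differences among the members lay between the lines. Each gene was tested with edgeR's quasi-likelihood test over all tested genes, and a gene was called when its Benjamini-Hochberg adjusted p was under 0.05. In vehicle, 16 of the 34 members were higher and 3 lower in the line labelled knockout, against 9.9% higher and 10.8% lower of all genes tested (20.7% called either way). In ivermectin, 14 were higher and 3 lower, against 14% and 13.9% of all genes (27.8% called). The vehicle and ivermectin comparisons contrast different libraries but share the spread estimated over all 16. Fitted each on its own libraries alone, they gave the same counts. The direction agreed for 33 of the 34 members and for 8471 of the 10822 genes tested, and 13 members were called the same way in both: 68.4% of the members called in vehicle and 76.5% of those called in ivermectin. For all genes those shares were 72.6% and 54.1%. The 11 called higher in both were Acat2, Hmgcs1, Mvk, Fdps, Lss and Tm7sf2 of the sterol arm, Fasn, Scd2 and Fads1 of the fatty acid arm, and Insig1 and Srebf1, and those called lower in both were Acly and Insig2. Of all genes, 7.32% were higher and 7.73% lower in both.

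**Figure D1:**
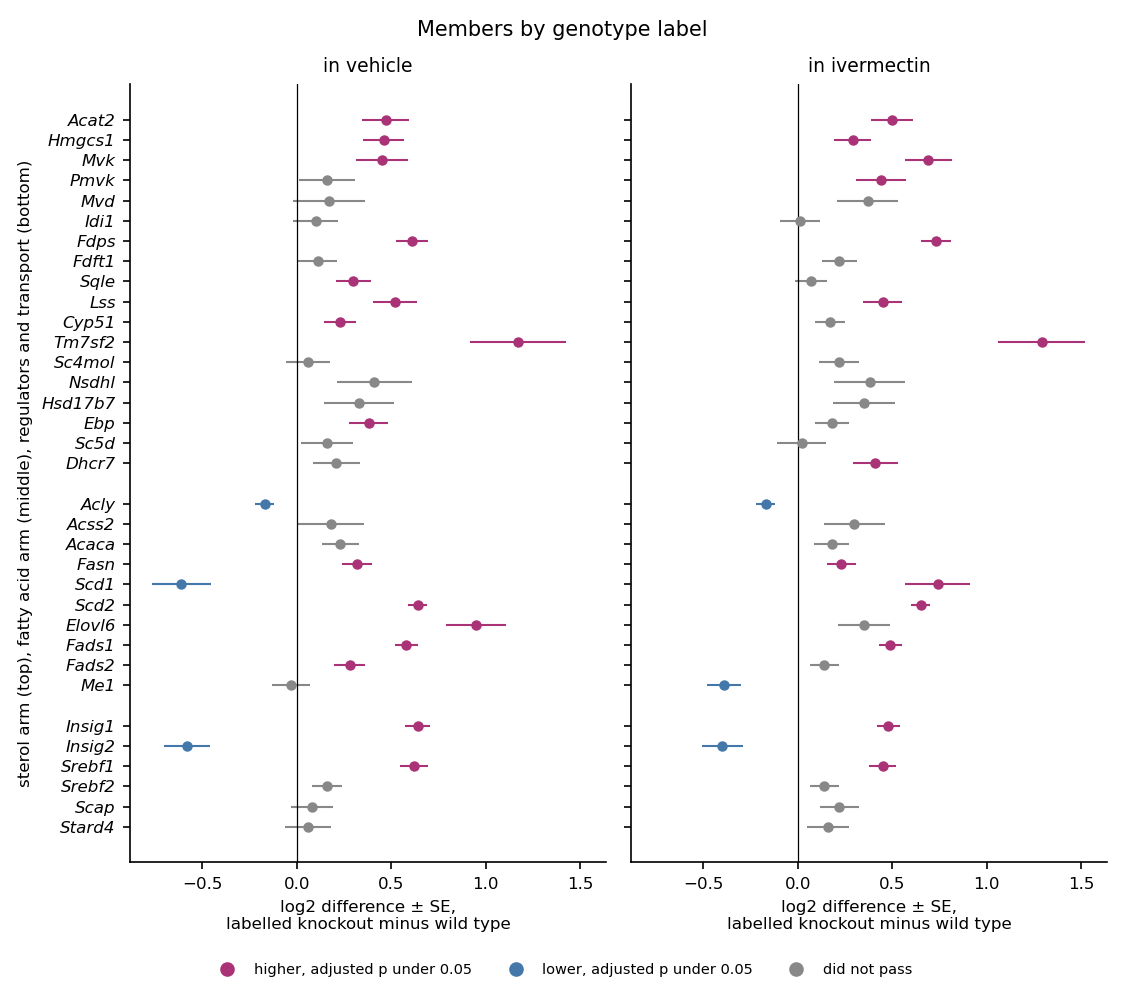
Log2 difference (labelled knockout minus wild type) with its SE for each of the 34 members, in vehicle (left) and ivermectin (right), coloured by whether the adjusted p passed 0.05. All 18 sterol-arm points lie above 0 on both sides, Tm7sf2 farthest at 1.17 and 1.29, while Acly and Insig2 lie below 0 in both and Scd1 changes side.

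The controllers of the pathway did not move as one. Srebf1, at chr11:60199084-60224186, was at 164, 197, 183 and 177 CPM in the 4 wild-type vehicle libraries and at 287, 299, 253 and 271 CPM in those labelled knockout. In ivermectin it was at 198, 192, 204 and 184 CPM in wild type and 272, 282, 235 and 274 CPM in the labelled line. The lines did not overlap in either treatment, and the folds were 1.54 (log2 0.62, SE 0.0759, edgeR adjusted p = 9.75e-08) and 1.36 (log2 0.45, SE 0.0706, adjusted p = 8.29e-06). With Alb as a covariate the vehicle value of Srebf1 was 0.43 and not called (edgeR adjusted p = 0.117, range 8.05e-15 to 0.117). Srebf2, at chr15:82147269-82205379, differed less: 129 ± 5.34 against 144 ± 2.47 CPM in vehicle (log2 0.16, SE 0.0812, adjusted p = 0.178) and 127 ± 6.62 against 140 ± 12.2 CPM in ivermectin (log2 0.14, SE 0.0756, adjusted p = 0.174; SD, n = 4 each). Scap, the escort protein of the SREBPs, gave log2 differences of 0.08 (SE 0.112, adjusted p = 0.664) and 0.22 (SE 0.102, adjusted p = 0.112), neither called. Without wild-type ivermectin replicate 1 the ivermectin value of Scap was 0.32 with an edgeR adjusted p of 0.0331, in a range of 0.0331 to 0.596 over its alternatives. Stard4, which carries cholesterol between membranes, gave 0.06 (SE 0.124) and 0.16 (SE 0.112), also not called.

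The INSIG pair moved in opposite directions. Insig1, itself a known SREBP target that retains the SCAP complex, lies at chr5:28071412-28078662. It was at 228, 254, 232 and 216 CPM in wild-type vehicle libraries and at 361, 367, 358 and 360 CPM in knockout-labelled vehicle libraries, a 1.55-fold difference (log2 0.64, SE 0.0645, edgeR adjusted p = 1.65e-09). Under ivermectin, wild-type libraries held 239, 261, 262 and 267 CPM and the labelled line 336, 364, 370 and 368 CPM (log2 0.48, SE 0.0602, adjusted p = 1.09e-07). No library of one line reached the range of the other. With Alb as a covariate the vehicle value of Insig1 was 0.43 (edgeR adjusted p = 0.054, range 3.09e-18 to 0.054) and that of Insig2 -0.46 (adjusted p = 0.35, range 0.000175 to 0.35), neither called. Insig2, at chr1:121304353-121332662, encodes the other INSIG, which is not known as a strong SREBP target. Its vehicle levels were 80.9, 74.3, 72.6 and 77.1 CPM in wild type and 58.1, 47.6, 57.9 and 40.3 CPM in the labelled line (log2 -0.58, SE 0.12, adjusted p = 0.000402). With ivermectin they were 74.5, 76.2, 65 and 76.5 CPM against 57.9, 54.3, 49 and 60.8 CPM (log2 -0.40, SE 0.109, adjusted p = 0.00608), again without overlap. Per length, the ratio of Insig1 to Insig2 ran from 2.41 to 3.68 over the 8 wild-type libraries and from 5.29 to 8.15 over the 8 labelled knockout. RefSeq places Insig1 inside the span of a long non-coding gene, Gm35223, and whether the counting used strand is not given in the sources used here.

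**Figure D2:**
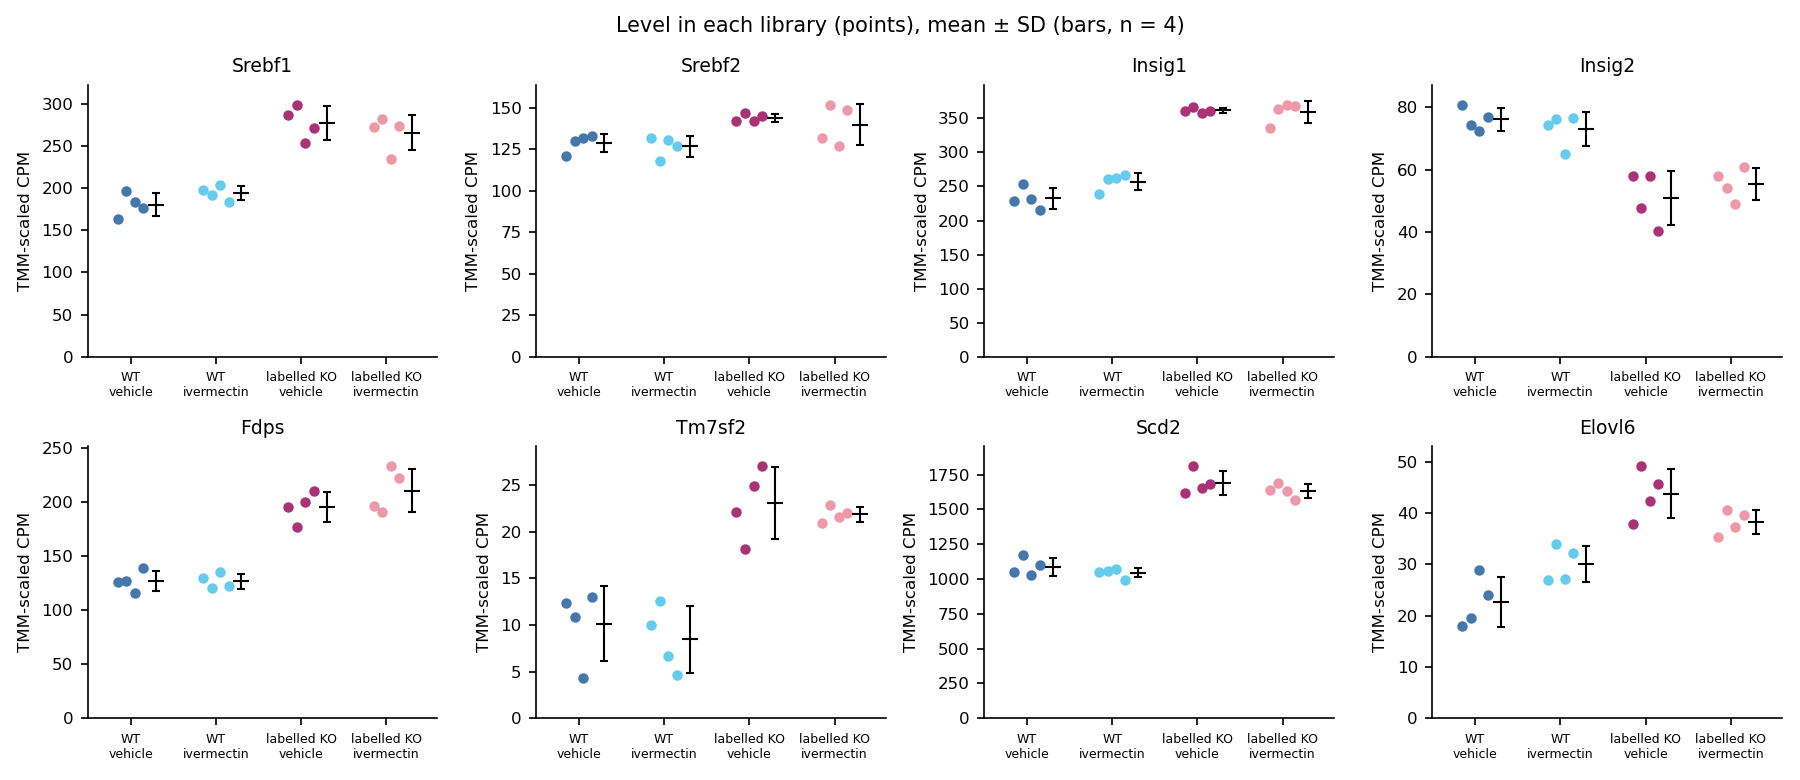
TMM-scaled CPM of 8 members in each library (points, 4 per group) with the group mean and SD (black). Srebf1, Insig1, Fdps, Tm7sf2 and Scd2 are higher and Insig2 lower in both groups labelled knockout with no overlap between lines, while Srebf2 overlaps in ivermectin.

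In the sterol arm, genes called higher in the labelled line ran from the first steps to the last. In vehicle 9 of its 18 genes were called higher and 9 did not pass (9.9% called higher over all genes), with a median log2 difference of 0.31 against 0 for all genes tested. In ivermectin 8 were called higher and 10 did not pass (14% over all genes), with a median of 0.36. All 18 values were positive in both comparisons, where 5403 and 5404 of all 10822 genes were positive, and 10 genes had lines that did not overlap in each, against 10.7% of all genes tested in vehicle and 12.5% in ivermectin.

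At the entry, Acat2, which joins acetyl-CoA units, was 1.39-fold higher in vehicle (log2 0.47, SE 0.126, edgeR adjusted p = 0.00554) and 1.42-fold higher in ivermectin. Its expected counts were fractional in all 16 libraries, so part of its reads were shared with another gene model and its value is uncertain. Hmgcs1, the HMG-CoA synthase whose window holds the sterol regulatory element printed above, was at 58.4, 72.4, 70.5 and 77.1 CPM in wild-type vehicle libraries and at 95.2, 101, 89.8 and 98.5 CPM in the labelled line. These libraries did not overlap (log2 0.46, SE 0.11, adjusted p = 0.00219). Under ivermectin its values of 80.5, 84.9, 63.6 and 84.2 CPM stood against 93.8, 93.1, 86.9 and 111 CPM, a smaller gap (log2 0.29, SE 0.0974, adjusted p = 0.0238). That call was lost without wild-type ivermectin replicate 3 (0.21, edgeR adjusted p = 0.116) or labelled ivermectin replicate 4 (0.22, adjusted p = 0.115). It was also lost with DESeq2 (0.29, adjusted p = 0.083), with Alb as a covariate (0.26, edgeR adjusted p = 0.0611) and after thinning of every library to the lowest total (0.11, edgeR adjusted p = 0.685). Over its alternatives the adjusted p ran from 0.0154 to 0.685.

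Of the mevalonate steps that follow, Mvk, mevalonate kinase, was at 33.7, 48.9, 36.3 and 47.4 CPM against 60.4, 56.7, 58.9 and 53.5 CPM in vehicle (log2 0.45, SE 0.137, edgeR adjusted p = 0.0162). In ivermectin it was at 33.5, 38.4, 40.4 and 42.1 CPM against 49.3, 70.3, 63.4 and 65.3 CPM (log2 0.69, SE 0.124, adjusted p = 5.4e-05). The lines were apart in both treatments. The vehicle call of Mvk was lost without wild-type vehicle replicate 1 (0.37, edgeR adjusted p = 0.0713) or 3 (0.39, adjusted p = 0.0639), in a range of 0.00705 to 0.956 over its alternatives, and with Alb as a covariate its value was -0.05. Pmvk, the kinase after it, gave log2 0.16 (SE 0.147, adjusted p = 0.494) in vehicle and 0.44 (SE 0.132, adjusted p = 0.0108) in ivermectin. Without labelled ivermectin replicate 3 its ivermectin value was 0.35 (edgeR adjusted p = 0.0602), after thinning 0.21 (edgeR adjusted p = 0.504) and with DESeq2 0.45 (adjusted p = 0.0531), none called, in a range of 0.00288 to 0.504.

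Fdps, at chr3:89093588-89101967, gave the smallest adjusted p-values of the arm. It was at 126, 127, 116 and 139 CPM in wild-type vehicle libraries and at 195, 177, 200 and 210 CPM in the labelled line, a 1.53-fold difference (log2 0.61, SE 0.0856, edgeR adjusted p = 1.15e-06). In ivermectin the values were 130, 120, 135 and 122 CPM against 196, 191, 233 and 222 CPM, a 1.66-fold difference (log2 0.73, SE 0.0784, adjusted p = 5.69e-09). Every labelled library was above every wild-type one. Fdft1, squalene synthase, which takes the product of Fdps into sterols, gave 0.11 (SE 0.102) and 0.22 (SE 0.0918), neither called.

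Past squalene, Lss, which closes the ring to lanosterol, was 1.43-fold higher in vehicle (58.2 ± 9.58 against 83.9 ± 3.48 CPM, SD, n = 4 each; log2 0.52, SE 0.114, edgeR adjusted p = 0.000854) and 1.36-fold in ivermectin (log2 0.45, SE 0.104, adjusted p = 0.00127). A long non-coding gene, 4930483K19Rik, overlaps Lss over 11269 bases. Tm7sf2, a sterol C14-reductase, had the largest difference between the lines of any member but low levels: 12.4, 10.8, 4.27 and 13 CPM in wild-type vehicle libraries and 22.1, 18.1, 24.9 and 27 CPM in the labelled line. In ivermectin it was at 10, 12.6, 6.63 and 4.59 CPM against 20.9, 22.8, 21.6 and 22 CPM. The lines did not overlap, with folds of 2.25 (log2 1.17, SE 0.253, adjusted p = 0.000737) and 2.45 (log2 1.29, SE 0.232, adjusted p = 5.78e-05).

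In the later steps 3 sterol genes were called in vehicle alone and 1, beside Pmvk, in ivermectin alone. Sqle, squalene epoxidase, gave log2 0.30 (SE 0.0931, edgeR adjusted p = 0.0177) in vehicle and 0.07 (SE 0.0853, adjusted p = 0.598) in ivermectin. Ebp, a sterol isomerase, gave 0.38 (SE 0.101, adjusted p = 0.00514) and 0.18 (SE 0.0886, adjusted p = 0.121). Cyp51, lanosterol demethylase, gave 0.23 (SE 0.0857, adjusted p = 0.05 after rounding, just under the threshold) and 0.17 (SE 0.0786, adjusted p = 0.116). Dhcr7, which makes cholesterol in the last step, gave 0.21 (SE 0.124, adjusted p = 0.258) in vehicle and 0.41 (SE 0.118, adjusted p = 0.00811) in ivermectin. None of these genes was called for a difference between treatments in the size of the line difference (interaction test, smallest edgeR adjusted p in the sterol arm 0.987), so the calls do not show that the treatments differ. The vehicle call of Cyp51 was lost in 10 of the 16 fits that left out 1 library, each time with a value between 0.20 and 0.27, and its ivermectin value passed (0.25, edgeR adjusted p = 0.0109, range 0.0109 to 0.439) without wild-type ivermectin replicate 4. The 7 sterol genes called in neither treatment (Mvd, Idi1, Fdft1, Sc4mol, Nsdhl, Hsd17b7 and Sc5d) gave log2 values of 0.01 to 0.41.

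The fatty acid arm moved in both directions. In vehicle 5 of its 10 genes were called higher, 2 lower and 3 did not pass (9.9% higher and 10.8% lower over all genes), with a median log2 difference of 0.25. In ivermectin 4 were higher, 2 lower and 4 did not pass (14% and 13.9% over all genes), with a median of 0.26.

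Acly, at chr11:100476352-100528000, was called lower in the labelled line in both treatments. Its levels were 2850, 2760, 2770 and 2790 CPM in wild-type vehicle libraries and 2450, 2550, 2470 and 2440 CPM in the labelled line (log2 -0.17, SE 0.0493, edgeR adjusted p = 0.0106). These did not overlap. In ivermectin they were 2800, 2640, 2670 and 2470 CPM against 2430, 2560, 2190 and 2260 CPM (log2 -0.17, SE 0.049, adjusted p = 0.0104), with overlap. Without wild-type ivermectin replicate 1 (edgeR adjusted p = 0.0539) or labelled ivermectin replicate 3 (adjusted p = 0.0656) the ivermectin value was -0.13 and not called, in a range of 0.00222 to 0.0656. Me1, the cytosolic malic enzyme that supplies NADPH, was at 91.4 ± 6.35 and 89.7 ± 5.92 CPM in vehicle (log2 -0.03, SE 0.0983) and at 107 ± 8.19 against 81.8 ± 8.54 CPM in ivermectin (SD, n = 4 each; log2 -0.39, SE 0.0892, adjusted p = 0.00112). After all libraries were thinned to the smallest total, the ivermectin value of Me1 was -0.19 and not called (edgeR adjusted p = 0.374, range 5e-04 to 0.374).

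Fasn, Scd2 and Fads1 were called higher in both treatments. Fasn, fatty acid synthase, stood at 430, 515, 438 and 528 CPM against 602, 663, 547 and 575 CPM in vehicle (log2 0.32, SE 0.0784, edgeR adjusted p = 0.00294), without overlap, and gave 0.23 (SE 0.076, adjusted p = 0.0223) in ivermectin, with overlap. Its ivermectin call was lost without wild-type ivermectin replicate 3 (0.20) or 4 (0.18) or labelled ivermectin replicate 2 (0.17), with edgeR adjusted p-values of 0.0716, 0.0848 and 0.104 in a range of 0.000715 to 0.104. Scd2, at chr19:44293676-44306864, gave the smallest adjusted p-values of all members. Its levels were 1050, 1170, 1030 and 1100 CPM in wild-type vehicle libraries and 1620, 1810, 1650 and 1680 CPM in the labelled line (log2 0.64, SE 0.0509, adjusted p = 5.18e-12). With ivermectin they were 1050, 1060, 1070 and 996 CPM against 1640, 1690, 1630 and 1570 CPM (log2 0.65, SE 0.0502, adjusted p = 2.27e-12). The lines were far apart in both, but expected counts of Scd2 were fractional in 16 of 16 libraries and those of Scd1 in 15, so reads that fit both paralogs may have been divided between them.

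Fads1, at chr19:10182877-10196874, was at 423, 397, 478 and 478 CPM against 681, 682, 674 and 624 CPM in vehicle (log2 0.58, SE 0.0617, edgeR adjusted p = 3.81e-09). In ivermectin it was at 468, 452, 456 and 401 CPM against 655, 623, 594 and 624 CPM (log2 0.49, SE 0.0595, adjusted p = 7.64e-08). No library of the 2 lines overlapped. Its neighbour Fads2, the Δ6-desaturase, differed less: log2 0.28 (SE 0.0808, adjusted p = 0.0122) in vehicle and 0.14 (SE 0.0773, adjusted p = 0.167) in ivermectin, and the vehicle call was lost without wild-type vehicle replicate 1 (0.22, edgeR adjusted p = 0.0673, range 0.00738 to 0.536). Elovl6 was at 18, 19.6, 28.8 and 24.1 CPM against 37.8, 49.1, 42.4 and 45.6 CPM in vehicle, a 1.93-fold difference (log2 0.95, SE 0.159, adjusted p = 2.31e-05). With Alb as a covariate this vehicle value was 0.53 and not called (edgeR adjusted p = 0.394, range 6.96e-07 to 0.394). In ivermectin it was at 27, 34, 27.2 and 32.1 CPM against 35.4, 40.6, 37.2 and 39.5 CPM, still apart but not called (log2 0.35, SE 0.136, adjusted p = 0.0552). That ivermectin value passed without wild-type vehicle replicate 3 (edgeR adjusted p = 0.0493), wild-type ivermectin replicate 2 (0.0402) or labelled vehicle replicate 2 (0.0494), with a range of 0.0402 to 0.799. Acaca, acetyl-CoA carboxylase, gave 0.23 (SE 0.0973, adjusted p = 0.0924) and 0.18 (SE 0.0928, adjusted p = 0.142), and Acss2, which activates acetate, 0.18 and 0.30, neither called.

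Scd1, at chr19:44394450-44407709, was the 1 member called in opposite directions. It was at 275, 126, 168 and 222 CPM in wild-type vehicle libraries, 118, 59.7, 58.3 and 54.3 CPM in wild-type ivermectin libraries, 118, 146, 119 and 131 CPM in labelled vehicle libraries and 122, 121, 132 and 129 CPM in labelled ivermectin libraries. The labelled line was thus flat, and wild-type libraries spanned the widest range. Against wild type, the labelled line was lower in vehicle (log2 -0.61, SE 0.157, edgeR adjusted p = 0.0043), with overlap, and higher in ivermectin (log2 0.74, SE 0.172, adjusted p = 0.00118), without overlap. Scd1 was lower with ivermectin than with vehicle in wild type (log2 -1.39, SE 0.173, adjusted p = 2.38e-06), a difference unlike that in the labelled line (log2 -0.04) in the interaction test (log2 1.35, SE 0.233, adjusted p = 0.00205).

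The liver transcript Alb, like Scd1, was higher in the vehicle than in the ivermectin libraries of wild type. Alb was at 923, 328, 380 and 684 CPM in the wild-type vehicle libraries, in the order given for Scd1, and at 172, 64.1, 57.7 and 112 CPM in wild-type ivermectin libraries. It was at 52.3, 17.1, 36.4 and 49.8 CPM in labelled vehicle and 144, 28, 71.2 and 29.8 CPM in labelled ivermectin libraries. The 4 wild-type vehicle libraries had the same order of Scd1 as of Alb, and the wild-type ivermectin libraries did not: replicate 4 held the second highest Alb and the lowest Scd1. With Alb as a covariate the ivermectin value of Scd1 in wild type was -0.94 with an edgeR adjusted p of 1 (range 1.93e-44 to 1 over its alternatives), that of the interaction 0.79 with an adjusted p of 1, and that between lines in vehicle 0.11. DESeq2 gave 1.40 for the interaction with an adjusted p of 0.0864. Without wild-type vehicle replicate 1, the library with most Alb, the vehicle difference between lines was -0.41 (edgeR adjusted p = 0.0611, range 1.2e-09 to 0.919). The Alb levels of the wild-type groups did not overlap, so in that comparison Alb and the treatment cannot be told apart.

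**Figure D3:**
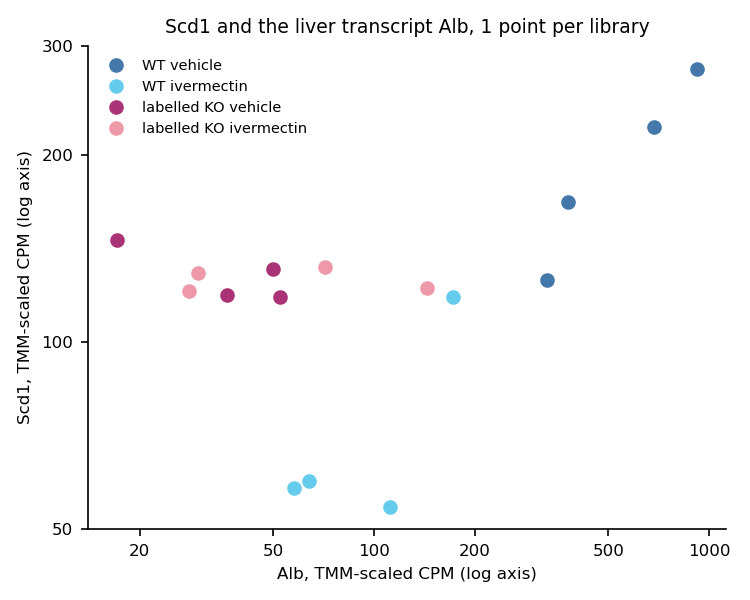
Scd1 against Alb, both in TMM-scaled CPM on log axes, 1 point per library, coloured by group. The wild-type vehicle libraries lie at 328 to 923 CPM of Alb and 126 to 275 CPM of Scd1, while the labelled libraries stay between 118 and 146 CPM of Scd1 over 17.1 to 144 CPM of Alb.

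Other members of the vehicle comparison touch the same libraries. The 4 wild-type vehicle libraries hold the lowest totals and the most liver transcripts, and with Alb as a covariate only 4 members, Fdps, Ebp, Scd2 and Fads1, all higher, passed in vehicle instead of 19, where Alb and the line do not overlap and cannot be told apart. Among the calls lost there, the value was larger than without the covariate for Lss (0.72), Tm7sf2 (1.46) and Sqle (0.38), and nearly the same for Cyp51 (0.24) and Acly (-0.17). It kept its sign but was smaller for Acat2 (0.37), Hmgcs1 (0.33), Fasn (0.27), Fads2 (0.23), Elovl6, Insig1, Insig2 and Srebf1, and it changed sign for Mvk and Scd1. With the 2 wild-type vehicle libraries of most Alb left out, an alternative added after the data were seen, 12 members were higher and 1 lower. Of the calls lost there, Scd1 was much nearer 0 (-0.18, was -0.61), while Mvk (0.42), Sqle (0.28), Cyp51 (0.27), Acly (-0.15) and Fads2 (0.22) stayed close to their values over all libraries. Thinning to the smallest total ended 5 vehicle calls, with values close to the unthinned ones for Acat2 (0.42), Sqle (0.27) and Ebp (0.37) and smaller ones for Hmgcs1 (0.36) and Fads2 (0.19). In ivermectin it ended the call of Insig2 at a slightly larger difference (-0.44) and those of Dhcr7 (0.28), Hmgcs1, Pmvk and Me1 at smaller ones. DESeq2 did not call Mvk (0.46), Cyp51 (0.24) and Scd1 (-0.62) in vehicle, or Hmgcs1 (0.29), Pmvk (0.45) and Dhcr7 (0.42) in ivermectin, and its values were nearly those of edgeR. The ivermectin values come from other libraries, although the fit shares 1 estimate of the spread over all 16. That comparison gave 14 higher and 3 lower, the same counts when fitted on its own libraries alone, and 16 in all with Alb as a covariate. Liver transcripts overlapped there between the lines, at 175 to 466 and 117 to 398 CPM.

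As sums of TPM, the sterol arm held 829 to 911 TPM in wild-type vehicle and 797 to 927 TPM in wild-type ivermectin libraries, against 1010 to 1110 and 1010 to 1070 TPM in the labelled line. The lines did not overlap. The fatty acid arm held 1870 ± 72.7 and 1730 ± 160 TPM in wild type and 1960 ± 164 and 1750 ± 160 TPM in the labelled line (vehicle, then ivermectin; SD, n = 4 each), with overlap in both treatments. Without Acly that arm held 823 to 946 against 1050 to 1280 TPM in vehicle and 720 to 896 against 930 to 1080 TPM in ivermectin, and the lines did not overlap. The ratio of the fatty acid arm to the sterol arm was 2.16 ± 0.0299 in wild-type and 1.84 ± 0.0975 in labelled vehicle libraries, and 1.99 ± 0.0648 and 1.67 ± 0.121 in ivermectin, with no overlap between lines in either treatment. Acly made up 51.7% to 54.3% of the fatty acid arm in wild-type and 41.6% to 44.3% in labelled libraries. With Acly left out of the ratio, the values were 1.02 ± 0.0231 and 1.06 ± 0.0634 in vehicle and 0.93 ± 0.0292 and 0.95 ± 0.0505 in ivermectin, and the lines overlapped. The lower ratio of the labelled line was thus seen in the sum with Acly and not in the sum without it. Since the sums mix genes of unlike level and were chosen with results known, they carry no test.

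**Figure D4:**
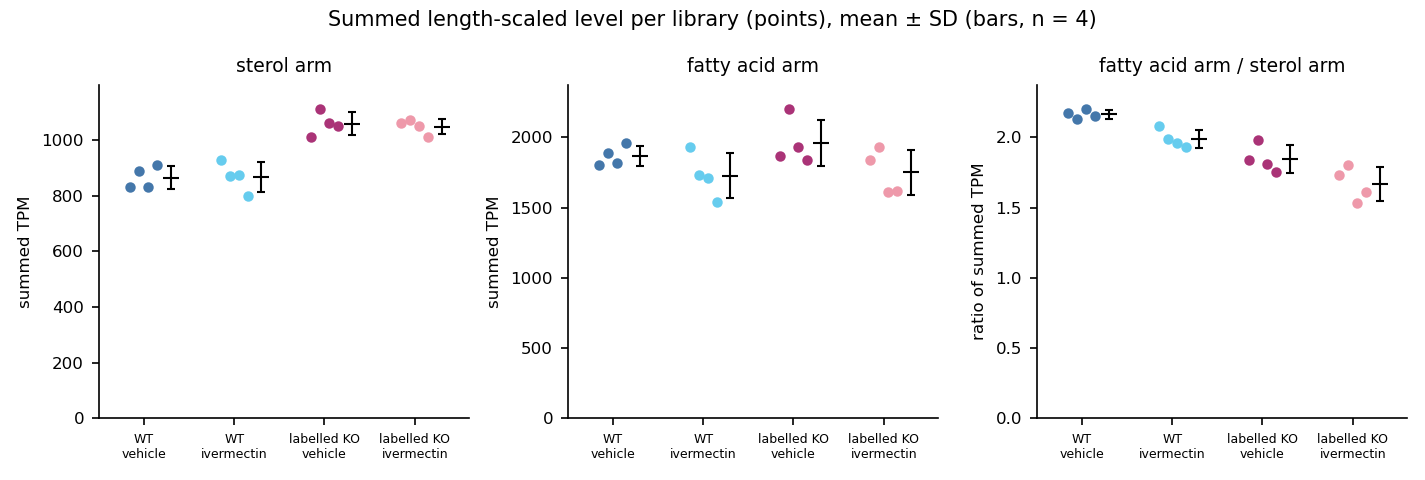
Summed TPM of the 18 sterol-arm genes, the 10 fatty-acid-arm genes and their ratio in each library (points), with group mean and SD (n = 4). The sterol sums of the lines do not overlap, the fatty acid sums do, and the ratio falls from 2.16 in wild-type vehicle to 1.67 in labelled ivermectin libraries.

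Within 30 min, few of these genes differed between ivermectin and vehicle. In wild type 1 member, Scd1, was called, against 0.61% of all genes tested, and 6 had an unadjusted p under 0.05, against 5.22% of all genes. In the labelled line edgeR called 0 members (0% of all genes tested), with 2 at an unadjusted p under 0.05 (7.6% of all genes), and DESeq2 called 0 too. The 34 values in that line ran from -0.25 to 0.26. The sterol arm's median log2 difference was 0 in wild type and 0.08 in the labelled line, and that of the fatty acid arm -0.07 and -0.10. Beside Scd1 the highest and lowest values in wild type were 0.40 for Elovl6 and -0.30 for Dhcr7, neither called. For the interaction, Scd1 was the 1 member called, against 0.222% of all genes. A missed threshold at 30 min does not show that these genes were unaffected.

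**Figure D5:**
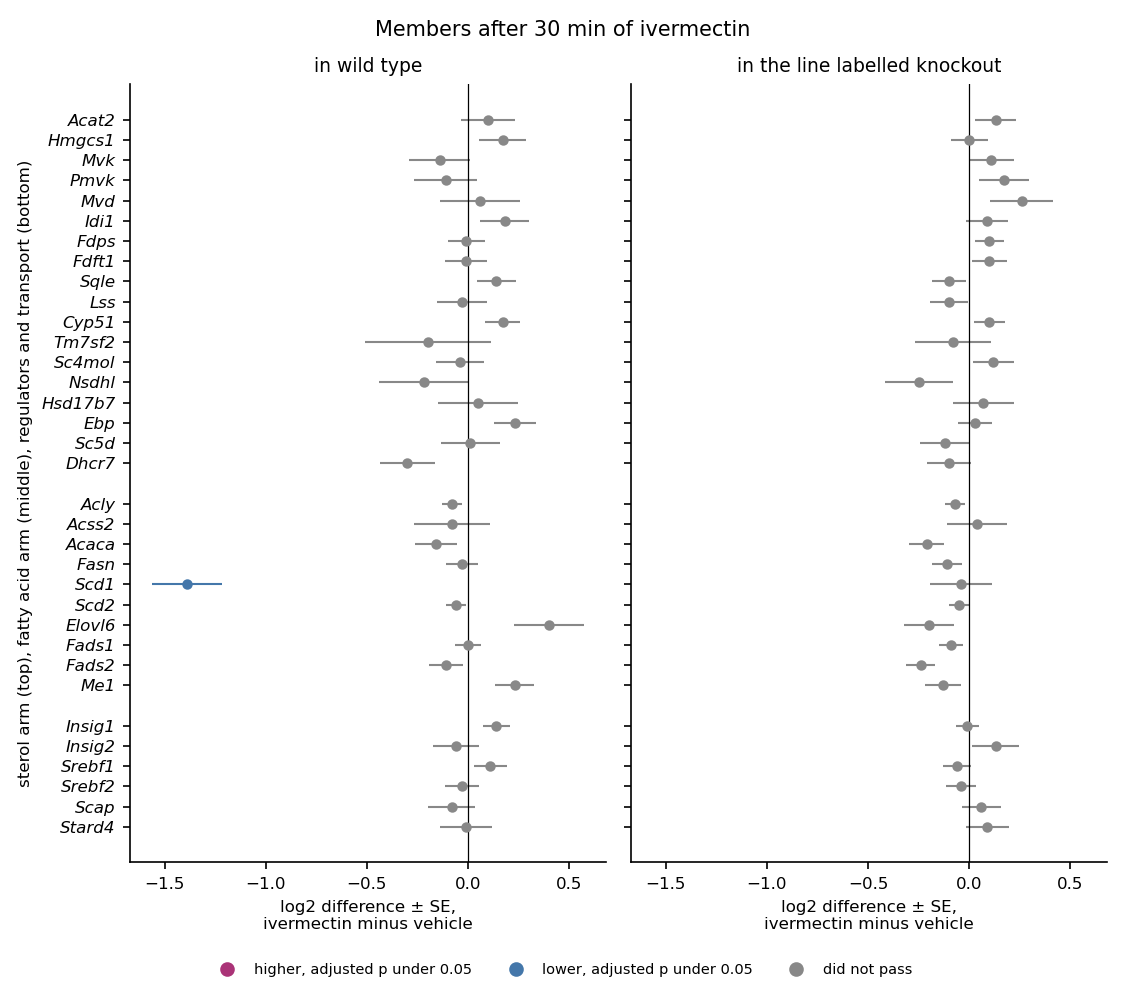
Log2 difference (ivermectin minus vehicle) with its SE for the 34 members, in wild type (left) and in the line labelled knockout (right). Scd1 in wild type, at -1.39, is the 1 coloured point, and the labelled line's values run from -0.25 to 0.26.

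Genes around the arms were read from 2 further lists. Of 31 tested genes of sterol uptake, export, storage and SREBP processing, 5 were higher and 3 lower in vehicle (median log2 -0.01), and 5 higher and 1 lower in ivermectin (median -0.01). As shares, 16.1% were higher and 9.68% lower in vehicle, against 9.9% and 10.8% of all genes, and 16.1% and 3.23% in ivermectin, against 14% and 13.9%. Abca1, which exports cholesterol, was at 40.8 ± 2.73 against 24.7 ± 5.47 CPM in vehicle (SD, n = 4 each; log2 -0.71, SE 0.164, edgeR adjusted p = 0.00136) and at 29.3 ± 3.98 against 23.3 ± 3.47 CPM in ivermectin (log2 -0.34, SE 0.162, adjusted p = 0.121, not called). Tmem97, which binds the lysosomal cholesterol transporter NPC1, was higher in both treatments (log2 0.70 and 0.76). Npc2, which hands cholesterol to NPC1, was higher in both as well, with log2 0.68 (SE 0.0969, edgeR adjusted p = 2.03e-06) in vehicle and 0.81 (SE 0.0909, adjusted p = 1.25e-08) in ivermectin.

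Of 25 tested genes of fatty acid supply, elongation and storage, 6 were higher and 5 lower in vehicle (median 0.11), and 9 higher and 5 lower in ivermectin (median 0.01). As shares, 24% were higher and 20% lower in vehicle, against 9.9% and 10.8% of all genes, and 36% and 20% in ivermectin, against 14% and 13.9%. Gpd1, glycerol-3-phosphate dehydrogenase, had the largest fitted difference of this list, at low levels: 9.38 ± 0.753 against 1.28 ± 0.834 CPM in vehicle (SD, n = 4 each; log2 -2.77, SE 0.477, edgeR adjusted p = 3.67e-05) and 5.65 ± 2.83 against 1.42 ± 1.03 CPM in ivermectin (log2 -2.02, SE 0.496, adjusted p = 0.00219). The labelled libraries held 1 to 5 counts of Gpd1 each in vehicle and 1 to 4 in ivermectin, about the 3 counts that a count of 0 allows, so the size of these differences is poorly fixed. Dgat2, which makes triglyceride, was lower in both (log2 -1.53, SE 0.287, adjusted p = 0.000119, and -0.99, SE 0.288, adjusted p = 0.00887). Elovl7, an elongase of saturated fatty acids, was higher in both, at 9.51 ± 1.79 against 17.5 ± 4.11 CPM in vehicle (log2 0.89, SE 0.244, adjusted p = 0.00716) and 9.05 ± 1.66 against 20.3 ± 1.91 CPM in ivermectin (log2 1.17, SE 0.213, adjusted p = 6.61e-05). Levels of Abca1, Gpd1 and Dgat2 were highest in the wild-type vehicle group, as was Alb, whose part in these values was not tested.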

How the data were processed

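The members, lists and tests were chosen with earlier results of these data known. RNA was read from 16 libraries, 4 per group. Per the submitters' processing notes, the tools were bcl2fastq, STAR 2.7.2b, RSEM 1.3.3 and DESeq2 1.32.0, with build mm10; how each was set is not given in the sources used here. The authors deposited expected counts and TPM per gene from RSEM, per the file headers, and a table of whole-number counts, which equals the expected counts rounded down. Expected counts were rounded to whole numbers and filtered with filterByExpr (minimum count 10, minimum total 15). The test was edgeR's quasi-likelihood test (version 4.0.16, R 4.3.3; glmQLFit and glmQLFTest) with TMM factors, which ran from 0.966 to 1.021, and a mean for each of the 4 groups in 1 fit, adjusted over 10822 genes. The SE of a log2 difference is its size over the root of F. CPM are scaled with TMM factors. Replicate pairs differed with a chi-squared per degree of freedom of 1.17 to 6.81, the 3 highest with wild-type ivermectin replicate 4. The scripts were tested on simulated data. At these totals 3 counts, the most that a count of 0 allows, come to 1.5 to 3.37 CPM, which covers counting error only.

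Named genes are every member called in 1 of the 5 comparisons, the regulators, and up to 3 of the largest called differences per further list and line comparison, some of which are not reported here. Alternatives were DESeq2 1.42.0, relative log expression factors, no filter, only the compared libraries, a replicate block, the deposited counts, Alb as a covariate, thinning to the smallest total, leaving out each library, and, added after seeing the data, leaving out 2 wild-type vehicle libraries. Thinning drew counts at random and was not repeated, so another draw could move its values and calls. Promoter windows came from RefSeq (GRCm38.p6). Human single-cell files were not analysed here.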

Additional observations from a re-analysis of the deposited data

Results flagged for a closer look

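Of 108 groups of 4 libraries examined for a library far from the other 3, 5 were picked out, and chance alone gives about 5. Scd1 in wild-type ivermectin replicate 1 was high, at 118 CPM against 54.3 to 59.7 CPM in the other libraries of its group, and that library also held the most Alb of its group (172 CPM). Lss was high in wild-type vehicle replicate 4, at 72.4 CPM against 51.8 to 54.5 CPM. Wild-type vehicle replicate 3 was low for Ebp, at 71.6 CPM against 80.8 to 82.1 CPM, and high for Sqle, at 121 CPM against 114 to 115 CPM. Fads1 was low in labelled vehicle replicate 4, at 624 CPM against 674 to 682 CPM, a level still above every wild-type library.

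The response of Scd1 to ivermectin differed between the lines in the interaction test (log2 1.35, SE 0.233, edgeR adjusted p = 0.00205). Its levels are given above with those of Alb. The value was 0.93 and did not pass without the 2 wild-type vehicle libraries of most Alb.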

How the results depend on the processing

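Of 38 calls on single members, 38 were kept with a replicate block, 37 each with relative log expression factors, the deposited counts and no filter, 31 with DESeq2, 31 without the 2 libraries of most Alb, 28 after thinning and 20 with Alb as a covariate. With only the compared libraries 37 of 37 were kept. Leaving out 1 library kept 34 to 38 of the 38. The counts of members called ran from 15 to 19 in vehicle and from 16 to 18 in ivermectin over those fits. With Alb as a covariate, 4 members passed between lines in vehicle, 0 between treatments in wild type (5 at an unadjusted p under 0.05) and 0 in the interaction (4 unadjusted). The interaction also gave 0 with DESeq2 (3 unadjusted) and 0 without the wild-type vehicle libraries of most Alb (3 unadjusted). The cause was not tested.

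The sterol arm's median between lines in vehicle was 0.37 with Alb as a covariate, 0.36 after thinning and 0.28 to 0.37 with 1 library left out, and in ivermectin 0.25 after thinning. Between treatments in wild type it was 0.07 with Alb as a covariate, 0.07 after thinning and 0.05 without the libraries of most Alb. In the labelled line it was 0.03 after thinning and 0.03 to 0.08 with 1 library left out. For the interaction it was -0.03 with Alb as a covariate and -0.03 without the libraries of most Alb. With 1 library left out, the fatty acid arm's median ran from -0.10 to -0.01 between treatments in wild type, from -0.13 to -0.07 in the labelled line, from 0.23 to 0.32 between lines in vehicle and from 0.21 to 0.31 in ivermectin.

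Signs turned in these fits, between lines in vehicle unless stated. With Alb as a covariate Me1 gave 0.08, Mvk -0.05, Scd1 0.11 and Srebf2 -0.02. Without the libraries of most Alb, Pmvk gave -0.04 and Scap -0.04. Me1 gave 0.01 without a filter and -0.06 to 0.03 with 1 library left out. Scd1 between treatments in the labelled line gave 0.00 after thinning and -0.07 to 0.03 with 1 library left out. Of these, Mvk and Scd1 between lines in vehicle had been called.

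Same-numbered libraries of different groups correlated at -0.05 to 0.145 in their deviations from the group means over 16 pairs. The pairs come from the comparisons of 2 groups, so a library can enter more than once. In 8 of the 16 the best partner in the other group had the same number, a count that does not exclude a pairing. As the labels do not say what a number marks and the correlations were low, the numbers were not taken to pair the samples. With the replicate block 19 members were called in vehicle, 17 in ivermectin, 1 between treatments in wild type, 0 in the labelled line and 1 in the interaction. Depth limits the low genes: Tm7sf2 in wild type fell as low as 4.27 CPM, near the 1.5 to 3.37 CPM that a count of 0 allows, and Gpd1 in the labelled line, at mean levels of 1.28 and 1.42 CPM, lay below that range.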
